A study of Mus musculus with 12 samples.

Results

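Non-tumour liver of F2 males whose grandmothers drank arsenite was compared with non-tumour liver of F2 males of an unexposed line, on 6 of the 12 arrays of the series. The 3 arrays titled arsenite non-tumor 1 to 3 were set against the 3 titled control non-tumor 1 to 3, and membership rests on the titles alone. All mice were C3H/HeN males of the F2 generation, reared to about 74 weeks on standard diet. Pregnant F0 dams of the arsenite line had tap water with 85 ppm sodium arsenite from day 8 to day 18 of gestation, and those of the control line had plain tap water. The F1 mice of the arsenite line were thus in the womb during the exposure. Neither the F1 mice, mated at 10 weeks of age, nor the F2 mice of either line were given arsenite themselves. Normal liver and tumours of the arsenite line (3 arrays each) are used below as values beside the comparison. Control-line normal liver and tumours were not analysed here. The labels do not give the number of F0 dams behind each group, nor whether a number stands for 1 mouse, and they do not define how non-tumour differs from normal tissue. The p-values therefore measure the spread between numbered samples.

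Male C3H mice are known for frequent liver tumours at old age. Inorganic arsenite reaching the liver is methylated by As3mt, which draws on S-adenosylmethionine from the methionine cycle, and arsenite itself induces metallothioneins and Hmox1. DNA methyltransferases use the same methyl donor. A comparison of tissue without tumour asks whether liver of the exposed line, 2 generations removed from the drinking water, carries a different expression pattern before any tumour tissue is considered.

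Signal was measured in bulk tissue on Agilent 1-colour arrays, so that fewer cells of a type and less RNA per cell cannot be told apart. Levels are the log2 of the spot signal minus the array's 75th percentile, so that 0 is the 75th percentile of an array, and a level says nothing about one gene against another. Of the spots outside controls, 42.5% to 44.3% were well above background on the 6 arrays, and log2 values of any 2 arrays correlated at 0.987 to 0.994 across genes, within groups (0.990 to 0.994) and between them (0.987 to 0.994). The defining hepatocyte marker Alb, albumin, read 10.79, 10.95 and 10.81 in controls and 10.81, 10.84 and 10.72 in the arsenite line, and all 18 hepatocyte markers passed the filter for testing, as the label of liver asks. The 6 arrays shared a slide, with controls in its first row and the arsenite line in its second, so slide row and group cannot be told apart. Spike-in RNA added at labelling, read from the 7 spike-in probes well above background on all 6 arrays, was lower in the arsenite line by a log2 difference of -0.47 to -0.14 relative to the array's 75th percentile.

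The lines differed in very little that the test could call. Of 16910 genes and transcripts tested with limma (called when the Benjamini-Hochberg adjusted p was under 0.05), 4 were lower in the arsenite line, 0.0237% of those tested, and 0 were higher. All 4 were dim transcripts: 3 long intergenic non-coding RNAs (lincRNAs, transcripts with no known protein) and 1 transcript annotated to Magi2, a scaffold protein of cell junctions. At an unadjusted p under 0.05 there were 1034 genes, 6.11% of those tested, of which 286 were higher and 748 lower. Of these unadjusted calls the higher ones made up 1.69% and the lower ones 4.42% of genes tested. The smallest adjusted p on the higher side was 0.126. With 3 arrays against 3, an exact permutation test of a single gene cannot go below p = 0.1.

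Because the called features are known by their probes alone, the 60-base probe sequences of the 3 lincRNAs are given, 5′ to 3′, with the regions of the array's annotation on mm9. The first region, chr9:58301467-58323783, lies on the forward strand, with the probe at chr9:58306049-58306108. The second, chr1:42759171-42771337, lies on the reverse strand. The third, chrX:47893703-47996700, lies on the forward strand, with the probe at chrX:47918120-47918179.
lincRNA of chromosome 9: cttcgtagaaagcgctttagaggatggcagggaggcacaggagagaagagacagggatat
lincRNA of chromosome 1: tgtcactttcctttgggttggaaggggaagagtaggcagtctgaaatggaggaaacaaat
lincRNA of chromosome X: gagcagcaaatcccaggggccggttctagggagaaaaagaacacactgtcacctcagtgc

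The lincRNA of chromosome 9 read -2.09, -1.98 and -2.68 in controls 1 to 3, and -5.04, -5.09 and -5.26 in arsenite arrays 1 to 3. It was well above background on all 3 control arrays and on 0 arsenite arrays, so its fold is a bound: at least 2.08-fold lower (log2 difference -2.88 ± 0.19, SE, n = 3 per group, limma adjusted p = 0.0096). For such a bound, an arsenite value below the detection level of its array was replaced by that level, the lowest signal among detected probes. Here and below, "at least" refers to the fold between measured group means. It takes no account of the spread between arrays, so a smaller true fold is not excluded by it. The Magi2 transcript (ENSMUST00000101556, probe at chr5:20211345-20211404 on mm9) read -2.57, -2.72 and -2.86 against -4.67, -4.52 and -4.84, at least 1.5-fold lower (limma adjusted p = 0.0096). The lincRNA of chromosome 1 read -2.60, -2.47 and -2.48 against -4.44, -4.17 and -4.18, at least 1.73-fold lower (limma adjusted p = 0.0096). The lincRNA of chromosome X read -2.49, -2.56 and -2.41 against -3.78, -3.56 and -3.73, at least 1.69-fold lower (limma adjusted p = 0.0397). In each of the 4 the groups lay apart by more than either group's own range. The 4 were picked by their p, so that separation is no added evidence. All 4 passed the filter through the control group alone, and so were tested because they read high in that group. In normal liver of the arsenite line the means were -2.74 ± 0.95 for chromosome 9, -3.19 ± 1.14 for the Magi2 transcript, -2.79 ± 0.60 for chromosome 1 and -2.84 ± 0.45 for chromosome X (SD, n = 3). These means lay between the 2 non-tumour groups, but normal 1 was the lowest normal array in each, and normal 2 and 3 lay nearer the controls. Normal liver was on another slide. Normal 1 had 40.5% of spots well above background, against 44.8% and 45.3% in normal 2 and 3. The part of this in the normal means was not tested. Normal 1 to 3 read -3.75, -1.85 and -2.63 for chromosome 9, and -4.49, -2.47 and -2.59 for the Magi2 transcript. They read -3.45, -2.30 and -2.62 for chromosome 1, and -3.31, -2.41 and -2.80 for chromosome X. Each feature was well above background on 2 of the 3 normal arrays.

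All 4 had a mean level between -4 and -3, where 4632 probes lay and the median arsenite minus control difference of all probes was -0.22. It was -0.26 between -5 and -4, and -0.02 to -0.00 at every band above -1. Scaling the arrays to the spike-ins, chosen after the values were seen, called 116 genes higher and 41 lower, 3 of the 4 among them, with the median of all genes tested at 0.30 in place of -0.01. The other scalings kept 3 or 4 of the 4. Normexp background correction, the 12-array and 9-array fits and a trended robust variance called 0. So did leaving out control 1, control 2, arsenite 1 or arsenite 3, while leaving out control 3 called 1 and leaving out arsenite 2 called 6. The part of signal strength and slide row in these calls was not tested.

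**Figure D1:**
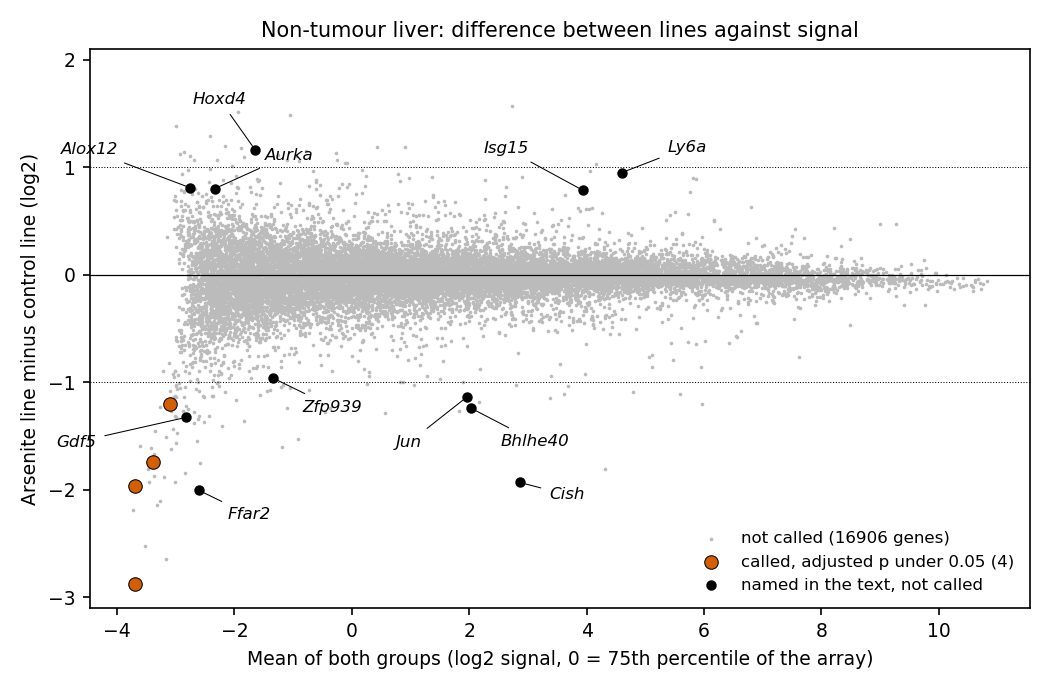
Log2 difference between lines (arsenite minus control, vertical axis) against the mean log2 level of both groups (horizontal axis) for the 16910 genes tested; dotted lines mark 2-fold. The 4 called features (large orange points) all lie at the dim left edge and below 0, while named genes with large differences, such as Cish at -1.93, were not called.

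The precision of the comparison bounds what it could miss. The median SE of a difference was 0.13 and the median 95% interval reached 0.32 on either side. For 15603 genes (92.3%) the interval lay wholly within a 2-fold difference in either direction. Fitted differences of 2-fold or more, which are no bounds where signal was below background, were seen for 131 genes, 27 higher and 104 lower. For 1778 genes (10.5%) the 3 values of one line did not overlap those of the other, 610 of them higher in the arsenite line (3.61%) and 1168 lower (6.91%).

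Among genes with a known product, the smallest p-values after the called features belonged to lower values in the arsenite line; unnamed probes, clones and predicted genes in the same range were not described. Gdf5, a growth factor of the BMP family, read -1.91, -2.22 and -2.37 in controls against -3.58, -3.33 and -3.56, at least 2.01-fold lower, with a limma adjusted p of 0.0776. Ffar2, a receptor for short-chain fatty acids found on leukocytes, read -1.01, -1.81 and -1.99 against -3.58, -3.44 and -3.81, at least 3.03-fold lower (adjusted p = 0.126). Both were well above background on all controls and on 0 arsenite arrays. Zfp939, a zinc finger gene, was measured on all 6 arrays at -0.90, -0.74 and -0.93 against -1.67, -1.94 and -1.85 (difference -0.96 ± 0.11, adjusted p = 0.103). None of these differences passed the threshold. Groups that did not overlap were a condition for naming these uncalled genes, so their separation is no added evidence. Cd300ld4, Celf3 and Ndnf, each below background on all arsenite arrays, were at least 2.17-fold, 1.52-fold and 1.99-fold lower by their means (adjusted p = 0.126 for each). For Gdf5, Ffar2, Cd300ld4 and Ndnf the interval of the log2 difference reached -0.98, -1.40, -0.78 and -0.86, so smaller folds than these bounds lay within it. The interval of Celf3 ended at -0.61 and held no fold below its bound. Flywch2 and Dop1a had differences of -0.72 and -0.83 (adjusted p of 0.126 and 0.152). Of the 16910 genes tested, 75 with a positive bound were well above background on every control array and no arsenite array, and 31 the other way round. On the control side these included Tnk2os (at least 2.27-fold lower), Duox2, a peroxide-producing oxidase (at least 1.95-fold), Lat, an adaptor of the T cell receptor (at least 1.79-fold), and Foxr1 (at least 1.67-fold). Genes of both counts were tested because of the group in which they read high, so the counts are no support for a difference. Dim probes read lower in the arsenite line in general, with a median difference of -0.26 between levels -5 and -4 and -0.22 between -4 and -3. The part of this in the 2 counts was not tested.

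On the higher side, Hoxd4, a homeobox transcription factor gene, read -2.53, -1.86 and -2.29 in controls and -1.10, -0.91 and -1.19 in the arsenite line (difference 1.16 ± 0.18, adjusted p = 0.176). Alox12, an arachidonate lipoxygenase, read -2.99, -3.18 and -3.32 against -2.23, -2.48 and -2.34, at least 1.54-fold higher (adjusted p = 0.176). Hoxa3, a second homeobox gene, was at least 1.21-fold higher (adjusted p = 0.215). Exog, an endonuclease of mitochondria below background on all controls, was at least 1.41-fold higher (adjusted p = 0.39). The intervals of Alox12 and Exog began at log2 differences of 0.51 and 0.40, so smaller folds than their bounds lay within them. That of Hoxa3 began at 0.33 and held no fold below its bound. Cdca8, Rasgef1c, Rnu2-10, Susd2, Aurka, Chst13, Zfp273 and Palld followed, with differences of 0.47 to 0.86 and adjusted p of 0.393 to 0.484. Palld, a protein of actin bundles, read 3.33, 3.57 and 3.40 against 4.07, 4.05 and 3.78. None of these genes was called. Ly6a, a surface antigen that interferon induces, was chosen for its size after its values were seen and read 4.14, 4.17 and 4.05 against 5.28, 4.37 and 5.56 (0.95 ± 0.29, adjusted p = 0.691).

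Interferon-induced genes had the largest median difference of the 49 gene lists described. Interferons secreted during infection or tissue damage act through a transcription factor complex that binds the interferon-stimulated response element in the promoters of antiviral genes. Of 35 tested members 34 had a difference above 0, where 45.6% of all genes did, and the median was 0.61 against -0.01 over all genes. Of the 35 members 0 were called (limma, background 0.0237%), and 3 were higher at an unadjusted p under 0.05 (background 1.69%). Groups did not overlap in 4, 11.4% of members against a background of 3.61%. The median rested on 1 array: in arsenite 3, 34 of the 35 members were the highest of the 6 arrays, where that array was highest in 12.4% of all genes. A score per array, the median over members of the log2 level minus the gene's mean over the 6 arrays, was -0.20, -0.29 and -0.25 in controls 1 to 3 and -0.08, -0.39 and 1.22 in arsenite arrays 1 to 3. Without arsenite 3 the median was 0.07.

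Ifit1, which binds viral RNA, read -1.04, -0.82 and -1.26 in controls and -0.86, -1.63 and 1.98 in the arsenite line. Isg15, a ubiquitin-like modifier, read 3.25, 3.62 and 3.77 against 3.67, 3.35 and 5.98. Rsad2, the antiviral enzyme viperin, read -0.92, -0.07 and -0.82 against 0.09, -0.48 and 1.70. In these 3 genes arsenite 1 and 2 lay within or near the range of the controls, and only arsenite 3 stood above all others. The 4 members whose groups did not overlap had smaller differences. Irf1, a transcription factor induced by interferon gamma, read 3.46, 3.60 and 3.54 against 4.27, 3.84 and 4.38 (difference 0.62 ± 0.15, SE here and below, adjusted p = 0.553). Bst2, the tethering factor of viral particles, read 5.28, 5.57 and 5.44 against 5.63, 5.76 and 6.06 (0.39 ± 0.14). Isg20, an RNA exonuclease, and Irgm1, an immunity GTPase, had differences of 0.44 ± 0.16 and 0.61 ± 0.32. Irf8 was the sole member below 0, at -0.05. Its level in arsenite 3 was the lowest of the 6 arrays.

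**Figure D2:**
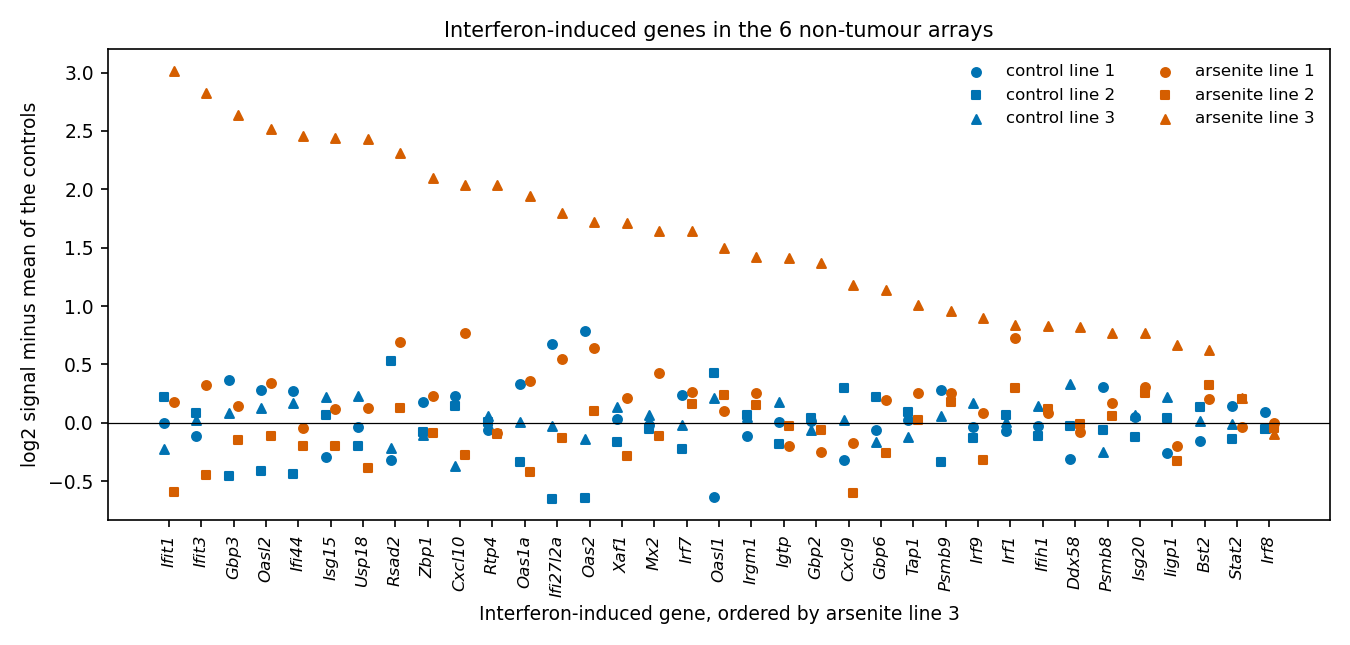
Log2 level of each of the 35 tested interferon-induced genes minus the mean of the 3 controls (vertical axis), with genes ordered by arsenite array 3 (horizontal axis); blue marks are control arrays, orange marks arsenite arrays, and circle, square and triangle stand for numbers 1, 2 and 3. Orange triangles lie above every other mark for 34 genes, while arsenite arrays 1 and 2 mix with the controls.

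Promoters of members that moved together in arsenite 3 are shown for 4 of them, with the response element in capitals (TTTC, any 2 bases, TTTC, or its reverse complement; overlapping matches joined). Each line holds 50 bases of the promoter on the gene's strand, from RefSeq on GRCm38.p6, at chr19:34640784-34640833 for Ifit1, chr4:156200855-156200904 for Isg15, chr12:26456543-26456592 for Rsad2 and chr11:48871421-48871470 for Irgm1.
Ifit1: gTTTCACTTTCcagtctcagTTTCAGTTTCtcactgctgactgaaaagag
Isg15: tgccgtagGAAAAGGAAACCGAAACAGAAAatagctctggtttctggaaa
Rsad2: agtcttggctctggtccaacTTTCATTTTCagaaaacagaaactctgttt
Irgm1: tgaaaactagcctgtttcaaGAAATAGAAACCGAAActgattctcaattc
Of 27 tested members with a promoter in the table (250 bases before to 50 after the start), 14 (51.9%) held the element on either strand, against 3.77% of 9876 tested genes with a promoter. A match describes letters in a promoter and is not a measured binding site.

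Immune cell markers gave the background to these values. Of 17 tested Kupffer cell and macrophage markers 16 were above 0, with a median of 0.35. Of these markers 0 were called (background 0.0237%) and 0 had separate groups (background 10.5%). Their summed signal ran from 153.6 to 248.6 in controls and from 189.6 to 263.0 in the arsenite line, in units of the array's 75th percentile. List scores were 0.26, -0.40 and -0.38 in controls and 0.26, -0.10 and 0.39 in arsenite arrays, so control 1 stood with arsenite 1. Without control 1 the median was 0.57, and it was 0.24 without arsenite 3. Clec4f, the lectin of resident Kupffer cells, read 4.28, 3.76 and 3.93 against 4.39, 4.13 and 4.33. C1qb, a complement subunit made by macrophages, read 2.40, 1.82 and 1.63 against 2.47, 2.12 and 2.56. The monocyte marker Ccr2 and the macrophage receptor Cd163 did not pass the filter on dim probes. Macrophage markers were highest in arsenite 3, the array with the high interferon score, in 11 of 17 cases (64.7%, background 12.4%). Their part in the interferon values was not tested.

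MHC class II genes, whose products present antigen, had 5 of 5 tested members above 0, with a median of 0.29. All 5 were highest in arsenite 3 (background 12.4%). The list's median was 0.13 without arsenite 3, 0.17 without control 3, and 0.46 and 0.50 without control 1 and arsenite 2. Cd74, the invariant chain, read 3.90, 3.38 and 3.12 against 3.80, 3.39 and 3.98 (0.26 ± 0.24). T and NK cell markers had 9 members tested of 18, with scores of -0.11 to 0.16 in controls and 0.04 to 0.06 in the arsenite line. Gzma, a granzyme of killer cells, read -1.63, -1.87 and -2.45 against -1.62, -1.45 and -1.20, and its groups did not overlap, with control 1 and arsenite 1 nearly equal. B and plasma cell markers had 4 tested members, among them Fcmr, the IgM receptor, well above background on 0 control and 3 arsenite arrays and at least 1.42-fold higher. The defining T cell genes Cd3d, Cd3g and Cd8a and the B cell gene Ms4a1 did not pass the filter. Neutrophil markers had a median of 0.21 over 5 tested members. None of these members was called (background 0.0237%).

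Red blood cell genes had 7 of 9 tested members above 0, with a median of 0.51. Hba-a1, an alpha globin gene, read 6.04, 6.39 and 7.02 in controls and 7.65, 7.37 and 6.31 in the arsenite line. Hbb-bt, a beta globin gene, read 5.27, 5.25 and 5.81 against 6.59, 6.29 and 5.15. Arsenite 1 and 2 lay above all controls, whereas arsenite 3 lay among or below them. Globin genes are near-identical copies, so their probes can share targets. Without arsenite 3 the list's median was 0.92, and without arsenite 1 it was 0.26. Endothelial, stellate and bile duct markers had medians of -0.01, -0.06 and -0.03. Des, a filament protein of stellate cells, was well above background on 3 control arrays and 0 arsenite arrays and at least 1.32-fold lower (not called). The genes of exocrine pancreas and fat, tissues that may adhere to a liver sample, had 5 tested members each, and Adipoq, Plin1 and Prss2 did not pass the filter.

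**Figure D3:**
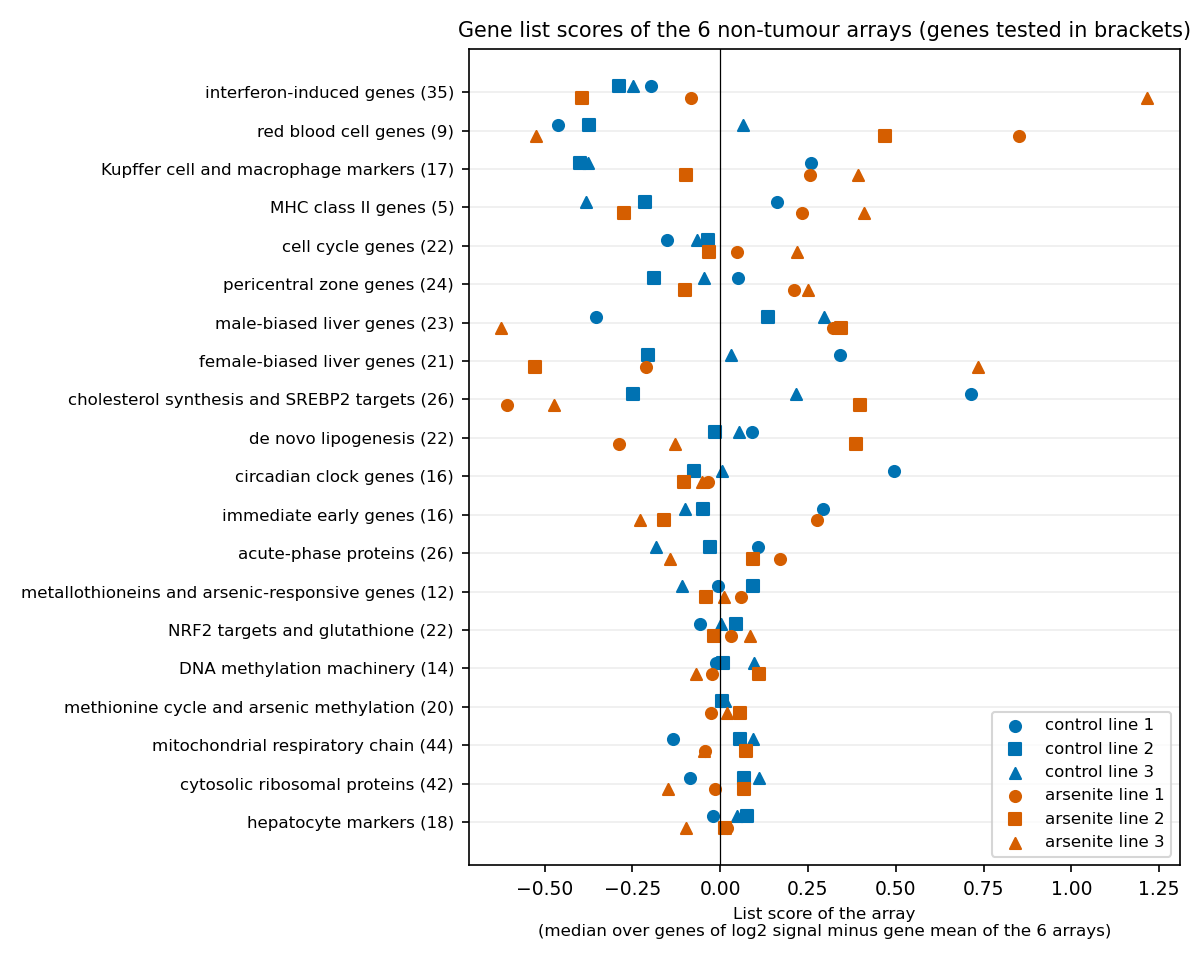
Score of each array for 20 gene lists (horizontal axis, median over genes of log2 level minus the gene's mean over the 6 arrays; genes tested in brackets); blue marks are control arrays and orange marks arsenite arrays. Arsenite 3 stands at 1.22 for interferon-induced genes, -0.62 for male-biased and 0.74 for female-biased genes, and the arrays lie close together for arsenic-responsive, methylation and ribosomal genes.

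Genes that respond to arsenic had a median difference near 0, with a wide interval for Mt1. Of 12 tested metallothioneins and arsenic-responsive genes, 5 were above 0 and 7 below, 0 were called (background 0.0237%), 0 had separate groups (background 10.5%), and the median was -0.05. The sign of that median turned when 1 array was left out, to 0.10 without arsenite 2, 0.07 without control 2 and 0.01 without control 1, and to 0.05 with the median of a gene's probes. Hmox1, the heme oxygenase that arsenite induces, read 3.21, 2.75 and 2.64 in controls and 3.00, 3.15 and 2.98 in the arsenite line (difference 0.17, 95% interval -0.21 to 0.56). Its interval excludes a 2-fold difference either way. Mt1, which binds zinc and other metals, read 9.60, 8.39 and 5.20 against 7.95, 6.14 and 7.88. Mt2 followed the same order of arrays, at 8.69, 8.11 and 3.60 against 7.42, 5.21 and 7.10. The controls alone spanned 5.20 to 9.60 in Mt1, and the interval of its difference ran from -3.01 to 2.19. Targets of NRF2, the oxidant sensor, and glutathione genes had 22 tested members with a median of 0.04 and 0 separate groups (background 10.5%). That median was -0.02 without control 1, -0.01 with array weights and 0.07 without control 3. Among them Gstm2, a glutathione transferase, was at 0.43 ± 0.17, Srxn1, which repairs oxidised peroxiredoxins, at 0.15 ± 0.14 and Gclc, which starts glutathione synthesis, at 0.14 ± 0.20.

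The methionine cycle and arsenic methylation had 20 tested members, 9 above 0 and 11 below, with a median of -0.00. As3mt, the arsenite methyltransferase, read 0.63, 0.45 and 0.65 against 0.27, 0.55 and 0.08 (-0.27 ± 0.14, 95% interval -0.61 to 0.07). Mat2a, the methionine adenosyltransferase of dividing cells, read 4.59, 4.05 and 4.21 against 3.99, 4.0 and 3.68, with groups that did not overlap (-0.39 ± 0.17, adjusted p = 0.827). Mat1a, its counterpart in mature hepatocytes, was at -0.10 ± 0.16. Pnp, a purine enzyme, was at 0.25 ± 0.11, with separate groups. Nnmt, which methylates nicotinamide, had a difference of 1.19 ± 0.69 with controls at 1.84, 0.13 and -1.02 and overlapping groups.

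Of the DNA methylation machinery 14 of 17 genes were tested. Tdg, the glycosylase that removes oxidised methylcytosine, read -1.39, -1.05 and -1.32 in controls and -1.70, -2.02 and -1.90 in the arsenite line (-0.62 ± 0.14, adjusted p = 0.439). Dnmt1, which copies methylation at replication, read -1.38, -1.30 and -1.26 against -1.67, -1.59 and -1.41 (-0.24 ± 0.11, adjusted p = 0.849). In both, every arsenite value lay below every control. That made 2 of 14 members (14.3%) with separate lower groups, against 6.91% of all genes, and the list's median was -0.02. In normal liver of the arsenite line Tdg was at -1.77 ± 0.38 and Dnmt1 at -1.58 ± 0.04 (SD, n = 3). The de novo methyltransferases Dnmt3a and Dnmt3b were at -0.13 ± 0.23 and 0.34 ± 0.36, and Tet1, Tet2 and Tet3, which oxidise methylcytosine, at 0.19, -0.07 and 0.14. Uhrf1 and Dnmt3l did not pass the filter. Of imprinted genes 10 of 19 were tested: Cdkn1c, a growth-restraining cyclin kinase inhibitor, read -0.14, 0.18 and -0.03 against -0.65, -0.92 and -0.16, and Mest -1.82, -1.91 and -2.03 against -1.69, -1.81 and -1.55. H19, Igf2 and Peg3 did not pass the filter.

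**Figure D4:**
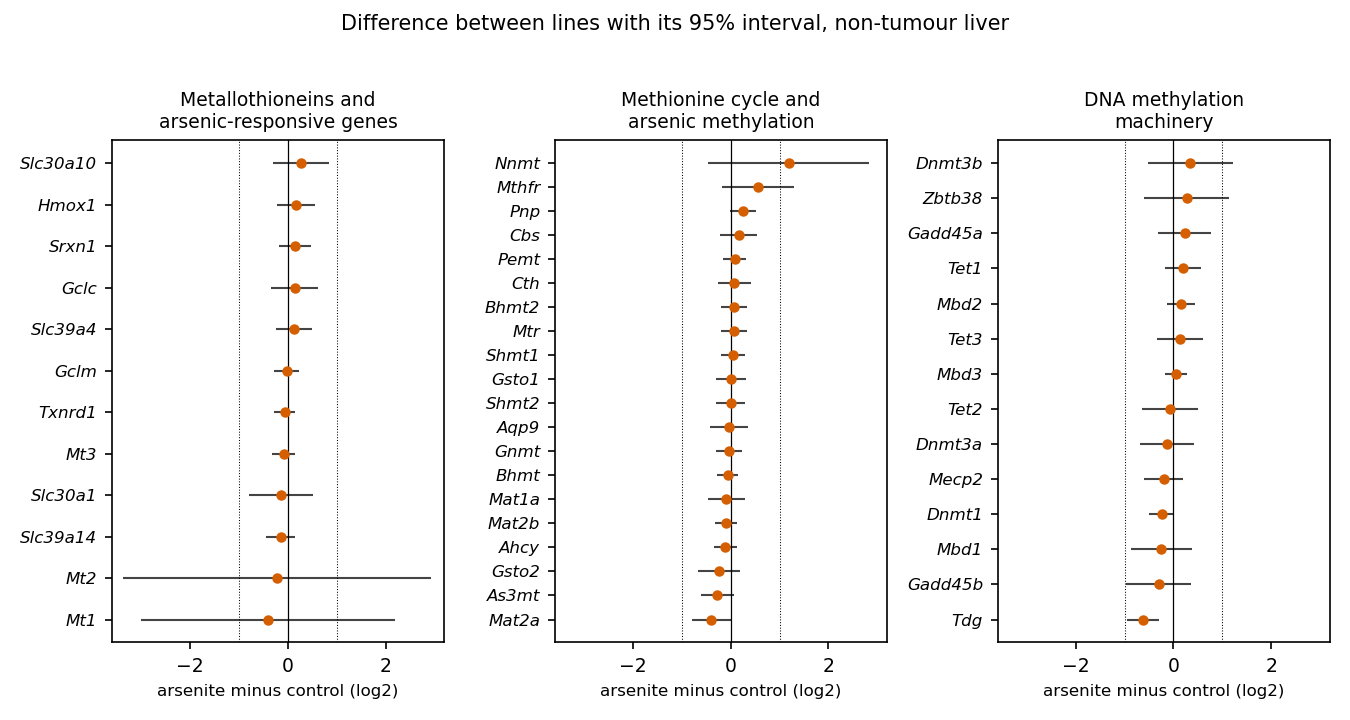
Log2 difference between lines (arsenite minus control, horizontal axis) with its 95% interval for the tested genes of 3 lists; dotted lines mark 2-fold. Intervals of Mt1 (-3.01 to 2.19) and Mt2 cross both dotted lines, that of Tdg (-0.95 to -0.30) lies below 0, and most others lie within 2-fold.

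Cell cycle genes, which mark division, were dim in both lines: 22 of 38 passed the filter, 16 above 0, with a median of 0.16. In 5 members (22.7%) every arsenite value lay above every control, against 3.61% of all genes, and 0 were called (limma, background 0.0237%). Birc5, which guards chromosome segregation, read -1.69, -1.08 and -0.67 against -0.17, -0.55 and 0.20 (0.97 ± 0.29, adjusted p = 0.683). Aurka, a mitotic kinase, read -3.13, -2.44 and -2.65 against -2.03, -1.91 and -1.87 (0.80 ± 0.18, adjusted p = 0.466). Mki67, the proliferation marker, read -2.09, -2.04 and -2.42 against -1.57, -2.04 and -1.31 (0.54 ± 0.20), with the highest control and the lowest arsenite value nearly equal. Foxm1, a transcription factor of mitosis, was well above background on 0 control and 3 arsenite arrays, and Mcm5, a replication helicase subunit, had its difference (0.77 ± 0.33) raised by arsenite 3 at -0.53. Aurka, well above background on 2 control and 3 arsenite arrays, and Foxm1 passed the filter through the arsenite group alone. Such members were tested because they read high in that group. The count of 5 includes Aurka and so is no support for a difference. In 12 of 22 members (54.5%, background 12.4%) arsenite 3 was the highest array, and without it the list's median was 0.09. Tumours of the arsenite line read far higher, with Mki67 at 2.02 ± 0.97 and Birc5 at 2.62 ± 1.13 (SD, n = 3).

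Targets of p53, the damage-response factor, had 14 of 18 tested members above 0 with a median of 0.08. Cdkn1a, which halts the cycle, read -1.05, 0.42 and -0.76 against 1.22, -0.18 and 0.11 (0.85 ± 0.48). Trp53 itself was at -0.26 ± 0.12, with separate groups. Senescence genes had a median of 0.07 over 20 members, which was -0.03 without control 3, 0.03 without arsenite 1 and 0.11 without arsenite 3. Cdkn2a, a senescence-associated cycle inhibitor, was at 0.53 ± 0.30 with overlapping groups, and the chemokine Cxcl1 at 0.66 ± 0.26 (0.77, 0.50 and 0.83 against 1.91, 1.32 and 0.86). Liver tumour markers had a median of 0.05 over 22 tested members, with 0 separate groups (background 10.5%), and Afp did not pass the filter. Of the genes recalled from related work on gestational arsenite, Tmem54 was at -0.30 ± 0.17, Fabp4 at -0.19 ± 0.15 and Cd74 at 0.26 ± 0.24, none with separate groups, while Dmbt1 did not pass the filter. That list may have been chosen on these samples and is not independent evidence of a direction.

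Cholesterol synthesis showed the lowest median of the lists, and it followed single arrays. The pathway builds sterols from acetyl-CoA under the transcription factor SREBP2. Of 26 tested members 24 were below 0, with a median of -0.54, 0 called (background 0.0237%) and 1 with separate, lower groups (3.85%, background 6.91%). Hmgcs1, which commits acetyl-CoA to the pathway, read 6.86, 4.33 and 5.43 in controls and 4.14, 5.61 and 4.28 in the arsenite line. Sqle, which oxidises squalene, read 5.51, 2.83 and 4.24 against 2.18, 4.55 and 2.74. In both, control 1 was highest and control 2 lay among the arsenite values. Over the list, control 1 was the highest array in 20 members (76.9%, background 18.5%) and arsenite 1 the lowest in 19 (73.1%, background 15.2%). The list scores were 0.71, -0.25 and 0.22 in controls and -0.61, 0.40 and -0.47 in arsenite arrays. Leaving out control 1 moved the median to -0.18, leaving out arsenite 1 to -0.28, leaving out arsenite 2 to -0.83, and leaving out control 1 and arsenite 3 together to -0.07. Insig1, which holds SREBP2 back in the presence of sterol, was the member with separate groups (3.32, 3.14 and 3.25 against 2.57, 2.94 and 3.09; -0.37 ± 0.15, adjusted p = 0.809). De novo lipogenesis had a median of -0.05 over 22 tested members, with Lpin1, a phosphatidate phosphatase, at 2.18, 1.01 and 0.79 against 0.57, 0.24 and 0.17.

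Several genes of the circadian clock and of the immediate early response were highest in control 1. The clock score was 0.49 in control 1 and between -0.10 and 0.01 in the other 5 arrays. Bhlhe40, a clock repressor, read 3.72, 1.98 and 2.27 against 1.51, 1.57 and 1.16, and its groups did not overlap (-1.24 ± 0.43, adjusted p = 0.748). Per1 read 2.87, -0.09 and 0.88 against 0.72, -0.90 and -0.02, and Dbp, an output factor of the clock, 5.85, 0.64 and 5.37 against 2.27, 2.81 and 3.33. Control 2 held the lowest Dbp value and control 1 the highest. Arntl, which peaks opposite to Dbp, read -0.13, 2.04 and 0.81 against 1.81, 1.70 and 1.93. The labels give no time of day of sampling. Jun, an immediate early factor, read 3.54, 1.93 and 2.11 against 1.55, 1.55 and 1.06 (-1.14 ± 0.41, adjusted p = 0.756). Normal liver of the arsenite line read 2.71, 2.84 and 3.09 for Jun and 5.01, 5.67 and 5.43 for Dbp, above the arsenite non-tumour arrays in both. Of 16 tested immediate early genes, 8 were above 0 and 8 below, with 2 separate and lower (12.5%, background 6.91%), Jun and Dusp1, a phosphatase that silences MAP kinases. Control 1 was the highest array in 7 of the 16 (43.8%, background 18.5%) and arsenite 1 in 5 (31.2%, background 13.2%). Their list scores were 0.29 and 0.27.

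Growth hormone, which male mice secrete in pulses, acts in liver through STAT5 and sets the sex-biased genes. Cish, a feedback inhibitor induced by each pulse, read 4.46, 3.08 and 3.95 in controls against 2.39, 3.11 and 0.18 in the arsenite line (-1.93 ± 0.74, adjusted p = 0.774), and its groups overlapped by 1 array. Socs2, another feedback inhibitor, read 2.13, 1.98 and 3.74 against 1.21, 1.91 and 2.09. Onecut1, a hepatocyte factor that growth hormone induces, read 5.24, 4.28 and 6.15 against 1.97, 5.19 and 3.09. Bcl6, a repressor that growth hormone lowers, read 1.88, 1.07 and 2.90 against 4.66, 1.40 and 4.50, the largest difference above 0 of any gene tested (1.57 ± 0.91, adjusted p = 0.927). In Onecut1 and Bcl6 arsenite 2 sat with the controls. None of the 20 tested members of this axis was called (background 0.0237%), and their median was 0.01.

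Male-biased liver genes had 23 tested members, with scores of -0.35, 0.13 and 0.30 in controls and 0.32, 0.34 and -0.62 in the arsenite line. Elovl3, a fatty acid elongase of male liver, read 3.04, 5.63 and 5.34 against 5.81, 5.75 and 0.79. Hsd3b5, a steroid enzyme of male liver, read 5.45, 7.35 and 7.87 against 7.66, 7.69 and 5.30. Arsenite 3 was the lowest array in 16 of 23 members (69.6%, background 24.2%). Control 1 was lowest in 6 (26.1%), near its background of 26.6%. Female-biased genes mirrored this, with scores of 0.34, -0.21 and 0.03 against -0.21, -0.53 and 0.74. Cyp3a44 read 0.49, -0.69 and -2.14 against -1.30, -1.50 and 3.67, and Cyp4a14, a fatty acid hydroxylase, 3.24, 1.36 and 2.78 against -1.60, -1.22 and 6.38. Arsenite 3 was the highest array in 13 of 21 female-biased members (61.9%, background 12.4%). The median differences of both lists were near 0 (-0.05 and -0.09), and without arsenite 3 they were 0.28 and -0.47. Leaving out another array also turned their signs in part, to 0.06 for male-biased genes without control 2 and to 0.14 for female-biased genes without arsenite 2. Arsenite 3 thus had the high interferon score, the low male-biased score and the high female-biased score at once, and the part of each in the other was not tested.

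**Figure D5:**
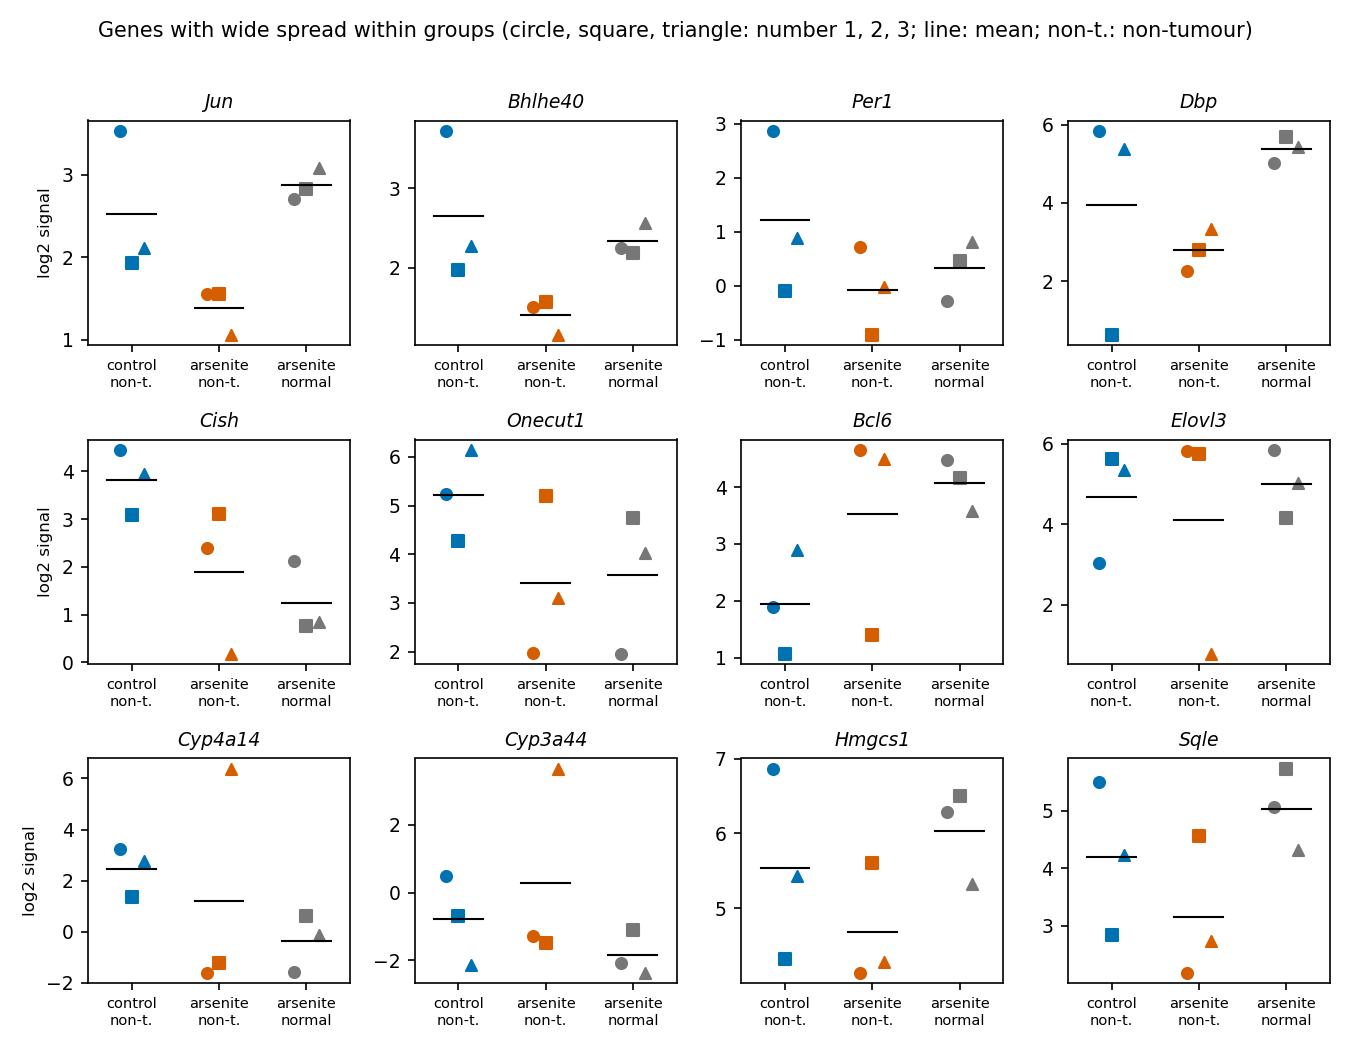
Log2 level (vertical axis, a separate scale in each panel) of 12 genes in control non-tumour (blue), arsenite non-tumour (orange) and arsenite normal liver (grey), with circle, square and triangle for numbers 1, 2 and 3 and a line at the group mean. Arsenite 3 set the group means of Elovl3, Cyp4a14 and Cyp3a44, and control 1 raised the control means of Jun, Bhlhe40 and Per1. In Jun and Bhlhe40, controls 2 and 3 also lay above every arsenite non-tumour value.

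Hepatocyte functions had list medians near 0. Of 44 respiratory chain genes, 42 ribosomal protein genes and 29 complement and coagulation genes tested, medians were -0.01, -0.07 and 0.03, with 0, 1 and 0 members apart, where 10.5% of all genes were. The ribosomal genes were below 0 in 40 of 42 cases by small amounts, and their median turned to 0.25 under spike-in scaling. That scaling moved most list medians and not these alone. Drug-metabolising P450s, conjugating enzymes and urea cycle and amino acid enzymes had medians of -0.00, 0.01 and 0.07. Of the 18 hepatocyte markers 4 had separate lower groups (22.2%, background 6.91%), namely Apob, Serpina1a, Serpina1c and Asgr2, and the median of the 18 was -0.04, which turned to 0.27 under spike-in scaling. Apob, the protein of very low density lipoproteins, read 8.59, 8.88 and 8.70 against 8.46, 8.11 and 8.19 (-0.47 ± 0.14, adjusted p = 0.662). Ppargc1a, a coactivator of fasting metabolism, read 1.26, 1.0 and 1.13 against 0.49, 0.66 and 0.63 (-0.54 ± 0.11, adjusted p = 0.393). Pdk4, which spares glucose in fasting, was at 1.19 ± 0.44 with groups that overlapped.

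Genes of the zone around the central vein had 19 of 24 tested members above 0, with a median of 0.20. Gulo, an enzyme of vitamin C synthesis, was at 0.28 ± 0.11, with separate groups. Znrf3, which dampens Wnt signalling, lay on the other side, at -1.78, -1.93 and -1.86 against -2.19, -2.41 and -2.38 (-0.47 ± 0.11, adjusted p = 0.466). Separate higher groups were seen in 3 members (12.5%, background 3.61%), and the list's median was 0.11 without arsenite 3 and 0.12 without control 2. Periportal genes had a median of 0.01, with Ccn2, a matricellular protein, at 1.40, 1.15 and 1.51 against 0.45, 0.85 and 0.38 (-0.79 ± 0.16, adjusted p = 0.393). In normal liver of the arsenite line Ccn2 was at 0.38 ± 0.14 (SD, n = 3), near the arsenite non-tumour values.

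Genes of protein folding were the other stress lists. Heat shock proteins and chaperones had 16 of 20 tested members above 0 (median 0.10), with Hsf2, a heat shock transcription factor, at 1.43, 1.45 and 1.49 against 1.78, 1.76 and 1.84 (0.34 ± 0.09, adjusted p = 0.599). The unfolded protein response and ATF4 targets had 19 of 25 above 0 (median 0.14, but 0.04 without control 1 and 0.27 without control 3). Dnajb9, a chaperone of the endoplasmic reticulum, was at 0.50 ± 0.18 and Ddit4, an inhibitor of mTOR signalling, at 0.27 ± 0.11, both with separate groups, while Atf4 itself was at -0.52 ± 0.18 with separate groups in the other direction. Acute-phase proteins had 20 of 26 above 0, with a median of 0.09. That median ran from 0.00 without control 3 to 0.20 without control 1. It moved by over 1.5 times without any of the other arrays as well. Collagens and matrix had 19 of 24 below 0 (median -0.10, which turned to 0.22 under spike-in scaling). Acute-phase and matrix genes each had 0 separate groups (background 10.5%). No member of these lists was called (background 0.0237%).

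Normal liver of the arsenite line was compared with the same limma model on the 9 arrays outside tumours. Arsenite non-tumour minus arsenite normal liver called 0 of 16910 genes, and arsenite normal minus control non-tumour called 0. Both share arrays with the comparison above, and normal liver lay on another slide, so slide and tissue cannot be told apart. Interferon scores were -0.06, -0.42 and 0.19 in normal liver and 0.14, -0.32 and 1.01 in tumours 1 to 3. Tumour 3, normal 3 and non-tumour 3 had the highest scores of their groups. The order of the numbered arrays by interferon score was the same in non-tumour liver, normal liver and tumours of the arsenite line. Male-biased and female-biased scores did not keep the same order across these groups. Male-biased scores were 0.32, 0.34 and -0.62 in non-tumour liver, 0.35, 0.10 and 0.27 in normal liver, and -3.82, -4.13 and -3.41 in tumours. The order in the remaining lists is not described. No label ties equal numbers to the same mouse, and such a tie was not tested.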

How the data were processed

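Total liver RNA of 12 samples was hybridised to Agilent 1-colour arrays; 6 are compared here. Per the labels, RNA was column-purified with a DNase step and 100 ng were labelled with Cy3. The deposited scanner files hold a processed intensity after background subtraction and detrending, not scaled between arrays, with probe positions on mm9, per the file headers. Headers name scanner software 10.7.3.1 and the submitters' processing notes 12.0.3.1. The authors' deposited value table was found to be a ratio of that signal to the array's 75th percentile over all spots, and served as an alternative.

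From 59305 non-control spots (55681 probes), the log2 of the deposited signal minus the array's 75th percentile was averaged per probe without outlier spots. Probes were named by accession (27235), symbol (3581) or synonym (565), or kept the file's name (24300). A gene was tested if its brightest probe on average was well above background on every array of either group (4075 genes had several probes; 20 lacked an array value, which was left out). limma 3.58.1 in R 4.3.3 (lmFit, eBayes, 2-sided) fitted the 6 arrays without a block, adjusted by Benjamini-Hochberg, and was tested on simulated data. The number of arrays limits the precision.

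The comparison, the 49 lists and the naming rule were chosen with earlier results of these data known; lists were described, not tested. Named are called genes, uncalled ones of smallest p up to 12 per direction, up to 4 members of smallest p per list, up to 10 genes detected in 1 group only, and Mt1, Mt2, Hmox1, As3mt, Dnmt1, Dnmt3a, Dnmt3b, Cd74, Tmem54, Dmbt1, Fabp4, Afp, H19, Igf2, Cdkn1a, Cdkn2a and Alb. Members named outside it (such as Ifit1, Hmgcs1, Elovl3, Cyp3a44, Dbp and Tet1) and the counts of highest or lowest arrays were chosen after values were seen. Alternatives concerned background, normalisation, filter, probe choice, arrays fitted, replicate block, weights and prior variance.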

Additional observations from a re-analysis of the deposited data

How the results depend on the processing

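Calls were few and depended on the setting. The 4 genes called lower (also 4 by a fitted difference of 2-fold or more, which for signal below background is no bound) became 0 with normexp background correction, on genes detected on all 6 arrays (the called features were below background in the arsenite line), in the fits of 12 arrays and of 9 arrays, with the replicate block, with a trended robust variance, and without control 1 and arsenite 3 together. They became 7 with the median of a gene's probes, 34 with no filter on dim probes and 11 with array weights (10 of at least 2-fold), and were 3 to 5 with the other normalisations and the deposited value table. Leaving out 1 array gave 0 to 6 genes lower, 0 to 6 of at least 2-fold, and 0 higher. Spike-in scaling gave 116 higher, 41 lower and 148 of at least 2-fold. Genes called higher were 0 under every other alternative. Apart from the calls stated, the causes were not tested. The count at an unadjusted p under 0.05 ranged from 852 to 2390.

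Residuals of control and arsenite non-tumour arrays correlated at 0.06, -0.02 and -0.10 for equal numbers and at -0.13 to 0.16 for unequal ones. Between these lines, values for equal numbers thus lay within the range of the others. Control and arsenite arrays come from different mice, so these values cannot show whether equal numbers share a mouse. Pairing by number within the arsenite line was not tested. Since numbers follow slide columns, the replicate block is also a column block. It called 0 genes, and 974 had an unadjusted p under 0.05. No value reversed for a called gene. Slide row as a covariate was not run, because it equals the group. Signal over background was one limit: the 4 features read below background in the arsenite line. Of all genes tested, 92.3% had an interval within 2-fold.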
